A study of Mus musculus with 2 samples.

Results

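The genes of serine synthesis and of the serine-dependent part of one-carbon metabolism were compared between G9a-KO and WT mouse embryonic stem cells (ESCs). The genes were chosen by their biochemical role, with earlier results of these data known. Every probe set whose only gene symbol in the platform annotation is one of them was taken. The list holds 10 genes, of which 9 were measured by 22 probe sets. *Tdh* had no single-gene probe set and was not analysed here. The whole array holds 45101 probe sets, of which 34958 carry a single symbol and stand for 18194 genes.

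Total RNA was hybridized to Affymetrix mouse genome expression arrays, with 1 array per group. The G9a-KO cells derive from TT2 ESCs and carry 1 G9a mutant allele and 1 floxed allele from which exons 26 and 27, the part that encodes the catalytic core of the SET domain, were removed by Cre. The WT cells are TT2 itself, an ESC line made from an F1 embryo (female parent C57BL/6, male parent CBA). The labels attach the same text on 4OHT (800 nM for 48 h, then 48 h without it) to both samples and do not say whether the WT cells were exposed to it. The methods of the study instead list the KO cells as an established null line kept on inactivated embryonic fibroblasts. The knockout is a single line in these data, so the loss of G9a and other differences between the cultures cannot be told apart.

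Serine is made from a glycolytic intermediate in a short chain of reactions, and it donates a carbon unit to folate when it is turned into glycine. This happens in parallel in mitochondria and in the cytosol, and the carbon units feed the synthesis of purines, thymidylate and, through methionine, the methyl donor that histone and DNA methyltransferases use. Mouse ESCs are known to depend on the breakdown of threonine, through *Tdh*, for glycine and such units, and in human cancer cells G9A has been linked to the expression of serine-glycine synthesis genes. The comparison asks how the messages of these genes stood in cells without G9a.

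Levels are on the log2 scale with the 75th percentile of each array at 0, and each difference is G9a-KO minus WT. A gene is represented by its probe set with the highest mean, called the brightest. It is called higher or lower past 1.3-fold, the threshold of the study for this pair, which is 0.38 on the log2 scale. Neither group has a replicate, so the spread between cultures is unknown and no p-value is given. The only technical measure at hand comes from 18 probe sets for spiked-in hybridization controls, which differed by between -0.16 and 0.21 (SD 0.11). The median of all probe sets lay at -2.13 in G9a-KO and -2.24 in WT, and all 22 probe sets of the members lay above it on both arrays.

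The promoters of the 4 members with the greatest differences, and of *Shmt1*, the 1 member with a difference below 0, are shown to give the sequence context of both ends of the range. Each line holds the 250 bases before the transcription start in RefSeq (build GRCm38.p6), read 5′ to 3′ on the strand of the gene, with CCAAT boxes in capitals on either strand (CCAAT or ATTGG). They lie on the minus strand at chr3:98339970-98340219 (*Phgdh*), chr19:15925060-15925309 (*Psat1*, the first of its 2 listed starts), chr19:30175442-30175691 (*Gldc*), chr6:83317605-83317854 (*Mthfd2*) and chr11:60811266-60811515 (*Shmt1*).
*Phgdh*: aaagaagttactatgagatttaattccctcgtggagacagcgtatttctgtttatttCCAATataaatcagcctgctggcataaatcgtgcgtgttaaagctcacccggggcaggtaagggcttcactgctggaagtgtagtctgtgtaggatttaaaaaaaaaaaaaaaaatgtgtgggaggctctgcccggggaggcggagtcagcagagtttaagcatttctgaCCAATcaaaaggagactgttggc
*Psat1*: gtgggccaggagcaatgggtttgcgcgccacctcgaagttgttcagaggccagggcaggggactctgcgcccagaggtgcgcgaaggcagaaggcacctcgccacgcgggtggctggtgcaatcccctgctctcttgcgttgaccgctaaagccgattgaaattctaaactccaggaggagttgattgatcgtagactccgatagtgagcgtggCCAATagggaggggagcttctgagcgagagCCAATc
*Gldc*: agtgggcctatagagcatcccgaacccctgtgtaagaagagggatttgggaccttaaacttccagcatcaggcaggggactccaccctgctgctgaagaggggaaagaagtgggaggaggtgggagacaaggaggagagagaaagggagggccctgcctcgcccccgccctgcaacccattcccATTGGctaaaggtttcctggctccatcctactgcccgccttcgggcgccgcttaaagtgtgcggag
*Mthfd2*: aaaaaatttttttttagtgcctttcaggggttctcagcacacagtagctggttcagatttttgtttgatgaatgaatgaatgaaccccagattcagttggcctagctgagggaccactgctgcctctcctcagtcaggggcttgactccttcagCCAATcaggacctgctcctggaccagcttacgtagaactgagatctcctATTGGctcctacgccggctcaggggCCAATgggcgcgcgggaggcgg
*Shmt1*: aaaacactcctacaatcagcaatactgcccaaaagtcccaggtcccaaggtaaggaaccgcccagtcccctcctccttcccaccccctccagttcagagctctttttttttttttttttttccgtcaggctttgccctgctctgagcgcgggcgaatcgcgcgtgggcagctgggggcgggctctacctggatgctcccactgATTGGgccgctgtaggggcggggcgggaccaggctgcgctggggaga

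All 9 measured members matched a RefSeq promoter, 10 promoters in all because *Psat1* has 2 starts. A CCAAT box stood in a promoter of 7 of the 9, the exceptions being *Shmt2* and *Mthfd1l*. Counted by promoter, it stood in 7 of the 10 and in 33.8% of 32851 promoters of the same length. Those 32851 were taken whatever the level of their genes. The E-box CACGTG, which MYC and MAX can bind, was found in 0 of the 10 promoters and in 6.02% of all promoters, and the C/EBP-ATF response element TGATGNAA, which ATF4 can bind, in 0 of the 10 and in 3.45%. Both strands were searched, and with these 2 motifs absent no CCAAT box of the members overlapped them. *Gldc* and *Shmt1*, at opposite ends of the range, both held a CCAAT box.

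Most members were higher in G9a-KO ESCs. In bulk RNA, more cells of a type and more RNA per cell cannot be told apart. Of the 9 measured, 6 exceeded 1.3-fold upward, 0 did so downward and the other 3 stayed within it. Among all 18194 genes the shares were 17.4% higher and 17.2% lower by the same rule. Among the 2570 genes whose mean lies in the range of the members (1.88 to 4.17), they were 20.4% and 21.1%. The members were chosen with earlier results of these data known, so these shares stand beside the counts and do not test them. The median of the members was 0.49 (1.41-fold), against 0.036 for all genes and -0.00114 for the 2570 genes. *Phgdh* and *Gldc* were past 2-fold, as were 4.61% of all genes and 4.28% of those in the same range. When at least 1 probe set past the threshold was enough, as in the methods of the study, 7 of the 9 members were higher and 0 lower, against 24.6% and 22.0% of all genes.

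**Figure D1:**
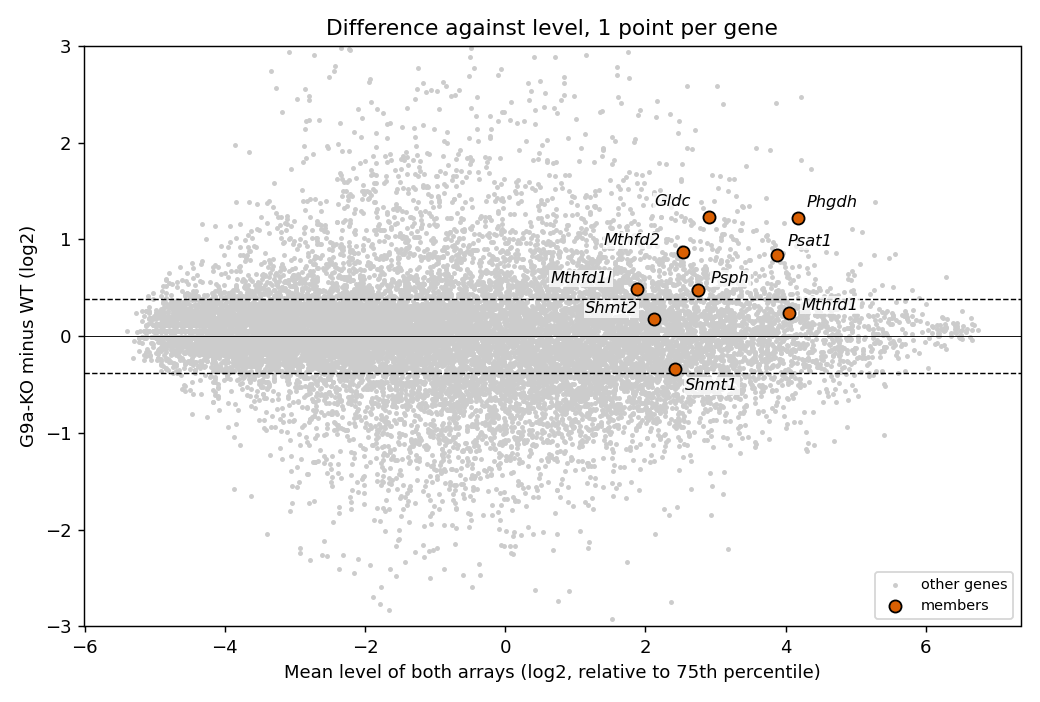
G9a-KO minus WT difference (log2, vertical axis) plotted against the mean of the 2 levels (log2, 75th percentile at 0, horizontal axis), 1 point per gene, with the 9 members in orange, dashed lines at 1.3-fold and 84 genes beyond the plotted range. Of the members, 6 lie above the upper dashed line, between 0.47 and 1.23, and *Shmt1* at -0.34 is the only one below 0.

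All 3 enzymes of serine synthesis were higher in G9a-KO. *Phgdh*, which encodes the dehydrogenase that commits the glycolytic intermediate to serine, had a level of 4.79 in G9a-KO and 3.56 in WT, a difference of 1.22 (2.34-fold). Its other probe sets gave 4.68 in G9a-KO and 3.42 in WT, 3.46 in G9a-KO and 2.10 in WT, and 3.08 in G9a-KO and 1.90 in WT. All 4 thus lay higher in G9a-KO, by between 1.17 and 1.35. Every single-gene probe set of *Phgdh* has the _x_at ending, which marks possible cross-hybridization, and 2 further probe sets that the annotation shares between *Phgdh* and another symbol were not used.

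*Psat1*, the aminotransferase of the next step, stood at 4.29 in G9a-KO and 3.46 in WT (difference 0.84, 1.79-fold). Its second probe set stood at 3.95 in G9a-KO and 3.42 in WT (difference 0.53, 1.45-fold). Both probe sets were thus higher in G9a-KO and past the threshold. *Psph*, the phosphatase that releases serine, was measured by a single probe set at 2.99 in G9a-KO and 2.52 in WT. The difference was 0.47 (1.39-fold), just past the threshold, and 0.37 under median centring, within it. By brightest probe set, the 3 differences became smaller from the first enzyme of the chain to the last, and the median of the 3 was 0.84. By its second probe set (0.53), *Psat1* lay close to *Psph* (0.47).

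**Figure D2:**
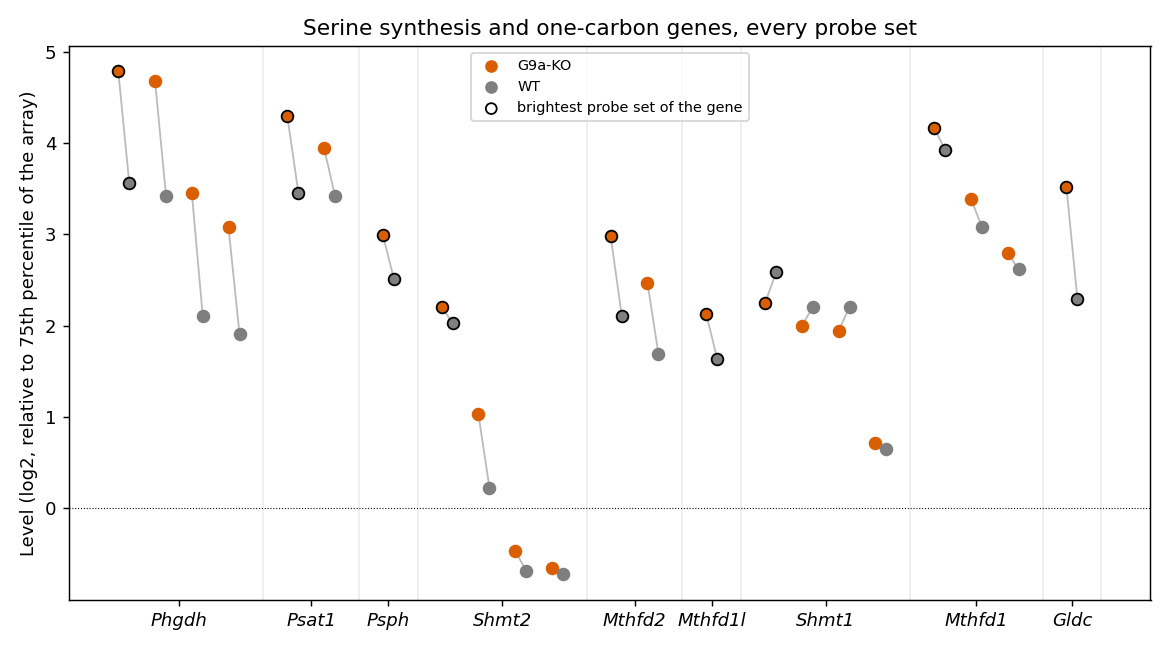
Level of every single-gene probe set of the 9 measured members (log2, 75th percentile at 0, vertical axis) on the G9a-KO array (orange) and the WT array (grey), 1 point per array, with the brightest probe set of each gene outlined in black. All 4 probe sets of *Phgdh* are higher in G9a-KO by at least 1.17, whereas 3 of the 4 of *Shmt1* have differences below 0, none past 1.3-fold.

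The mitochondrial folate enzymes were higher in G9a-KO for 2 of the 3 genes. *Mthfd2*, the mitochondrial dehydrogenase and cyclohydrolase that oxidizes folate-bound carbon units, had levels of 2.98 in G9a-KO and 2.11 in WT (difference 0.87, 1.82-fold). The second probe set had 2.47 in G9a-KO and 1.69 in WT (0.78, 1.72-fold), so both passed the threshold. *Mthfd1l*, which releases the carbon unit as formate, had 2.13 in G9a-KO and 1.63 in WT by its only probe set (0.49, 1.41-fold).

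*Shmt2*, the mitochondrial enzyme that splits serine into glycine and a carbon unit, gave an answer that depended on the probe set. The brightest had 2.21 in G9a-KO and 2.03 in WT, a difference of 0.18 (1.13-fold) within the threshold. The second had 1.03 in G9a-KO and 0.23 in WT, a difference of 0.80 (1.75-fold). The remaining 2 differed by 0.22 and 0.071. All 4 differences were above 0, but only the second passed 1.3-fold, and it is the only one of the 4 whose ID lacks the _x_at ending.

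The cytosolic counterparts did not pass the threshold under the 75th percentile shift, but *Shmt1* was past it, lower, without a shift (-0.39) and under median centring (-0.44). *Shmt1*, which performs the same reaction as *Shmt2* in the cytosol, had 2.25 in G9a-KO and 2.58 in WT, a difference of -0.34 (1.26-fold lower). Of its other probe sets, 2 differed by -0.21 and -0.26 and the dimmest by 0.070. The ID of the brightest has the _s_at ending, and without _s_at and _x_at probe sets *Shmt1* differed by -0.21. *Mthfd1*, the trifunctional cytosolic enzyme that handles formate and folate-bound units, had 4.16 in G9a-KO and 3.93 in WT (difference 0.24, 1.18-fold). Its other probe sets differed by 0.31 and 0.18. All 3 probe sets of *Mthfd1* thus had differences above 0 and none passed 1.3-fold.

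Set side by side by brightest probe set, the mitochondrial enzyme had the higher difference in each pair, with *Mthfd1* standing in more than 1 pair. *Shmt2* exceeded *Shmt1* by 0.52, *Mthfd2* exceeded *Mthfd1* by 0.63 and *Mthfd1l* exceeded *Mthfd1* by 0.25. With 1 array per group these gaps could not be tested. They also depend on the probe set, since the dimmest of *Shmt2* (0.071) and the dimmest of *Shmt1* (0.070) differed alike.

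*Gldc* encodes the decarboxylase of the mitochondrial glycine cleavage system, which takes a carbon unit from glycine. It had 3.52 in G9a-KO and 2.29 in WT by its only probe set. The difference of 1.23 (2.35-fold) was the largest of the members by brightest probe set, and 3.09% of all genes had a higher one. The share was 3.14% for *Phgdh*, 5.79% for *Mthfd2* and 6.13% for *Psat1*, so these 4 stood among the higher differences of the array. It was 80.9% for *Shmt1*.

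The other genes of the pathway were more mixed. Of 51 further genes in 6 lists, 44 were measured, of which 15 were higher, 4 lower and 25 within 1.3-fold, against 17.4% higher and 17.2% lower among all genes. The median was 0.17. At 2-fold, 4 were higher and 1 was lower, against 4.61% and 3.76% of all genes.

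The 10 genes of folate, serine and glycine transport were all above 0 by their brightest probe sets, as were 53.4% of all genes. The median of the 10 was 0.30, and 4 passed the threshold upward, as did 17.4% of all genes. Another bright probe set of *Slc25a32*, the mitochondrial folate carrier, ran the opposite way (-0.19, against 0.16 by the brightest). *Slc1a4*, which carries serine and other small neutral amino acids, had 0.97 in G9a-KO and -0.51 in WT (difference 1.48, 2.79-fold), and its other probe sets differed by 1.82 and 2.13. *Sfxn1*, the mitochondrial serine carrier, had 2.72 in G9a-KO and 2.25 in WT (0.47), with 0.56 by the other probe set, and the difference of 0.37 under median centring was within the threshold. The folate carrier *Slc46a1* (0.57) and the folate receptor *Folr2* (0.72) were higher too, *Folr2* from a dim signal of -1.16 in G9a-KO and -1.88 in WT. The folate receptor *Folr1* differed by 0.28.

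Of 7 measured genes that use serine or lead from it to cysteine, the median was 0.46, and 4 were higher and 1 lower. Among all genes, 17.4% were higher and 17.2% lower. *Cth*, which makes cysteine from cystathionine, had 2.05 in G9a-KO and 0.87 in WT (1.18, 2.27-fold). The serine racemase *Srr* (0.49) and the phosphatidylserine synthase *Ptdss1* (0.46) were higher, but *Ptdss1* was within the threshold when arrays were centred on their medians (0.36). The other bright probe set of *Srr* also gave 0.49. *Srr* was within the threshold by the mean of all its probe sets (0.15), which took in probe sets dimmer than the median on both arrays. *Sptlc1*, a subunit of the enzyme that joins serine to a fatty acid to start sphingolipid synthesis, was lower, with 0.53 in G9a-KO and 1.25 in WT (-0.71), and its other bright probe sets gave -0.96 and -0.89. The partner subunit *Sptlc2* was higher by its brightest probe set (0.98), but its other bright probe sets ran the opposite way (-0.13 and -0.68). *Cbs*, the enzyme upstream of *Cth*, differed by 0.12.

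Of 10 measured genes on the methionine cycle list, which takes in relatives of its enzymes, 4 were higher and 0 lower. The shares of all genes were 17.4% and 17.2%. The median of the 10 was 0.19. *Mat2a*, also on this list, was not measured. *Ahcyl1*, a relative of the enzyme that clears the product of methylation, had 2.97 in G9a-KO and 2.14 in WT (0.83), with 1.10 and 1.17 by its other probe sets. *Gnmt*, a glycine methyltransferase, had 0.19 in G9a-KO and -0.66 in WT (0.85). *Bhmt*, which remethylates homocysteine with betaine, had -1.52 in G9a-KO and -2.97 in WT (1.45). *Bhmt* in WT and *Bhmt2* (1.37) on both arrays were dimmer than the array median, which makes the size of these differences inexact. *Ahcy* itself differed by 0.00166, *Mat2b* by -0.18 and the folate-dependent methionine synthase *Mtr* by 0.23. The other probe set of *Mtr* differed by 0.54, and the mean of both (0.39) passed the threshold.

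The 6 enzymes of de novo purine synthesis, a pathway that uses folate-bound units at some of its steps, were not higher. Their median was -0.19, with 0 past the threshold upward and 2 downward, against 17.4% and 17.2% of all genes. *Pfas* differed by -0.62 (1.53-fold lower), and *Adsl* had 1.80 in G9a-KO and 2.42 in WT (-0.63). *Paics* (0.14), *Gart* (0.10) and *Atic* (-0.050), which inserts a formyl group, were within the threshold. The other bright probe sets of *Gart* lay between -0.12 and 0.19.

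Among 9 measured other folate enzymes, the median was 0.11, and 3 were higher and 1 lower, against 17.4% and 17.2% of all genes. *Ggh*, which trims the glutamate tail of folates, had -0.97 in G9a-KO and 0.43 in WT (-1.39, 2.63-fold lower). *Aldh1l1*, a formyl-folate dehydrogenase, was higher with -0.87 in G9a-KO and -1.59 in WT (0.72), but within 1.3-fold by the mean of its probe sets (0.35), the dim second one differing by -0.027. The other higher ones, *Tyms* and *Mthfs*, were dimmer than the median on both arrays, and a second probe set of *Tyms* was past the threshold the opposite way (-0.61). *Mtfmt* (-0.25) and *Fpgs* (-0.15) were within 1.3-fold. Of the partners of *Gldc* in glycine cleavage, *Gcsh* (-0.13) and *Dld* (0.35) were measured and neither passed the threshold. *Dld* did by the mean of its probe sets (0.40), but the second was dimmer than the median on both arrays (-3.79 in G9a-KO and -4.23 in WT).

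**Figure D3:**
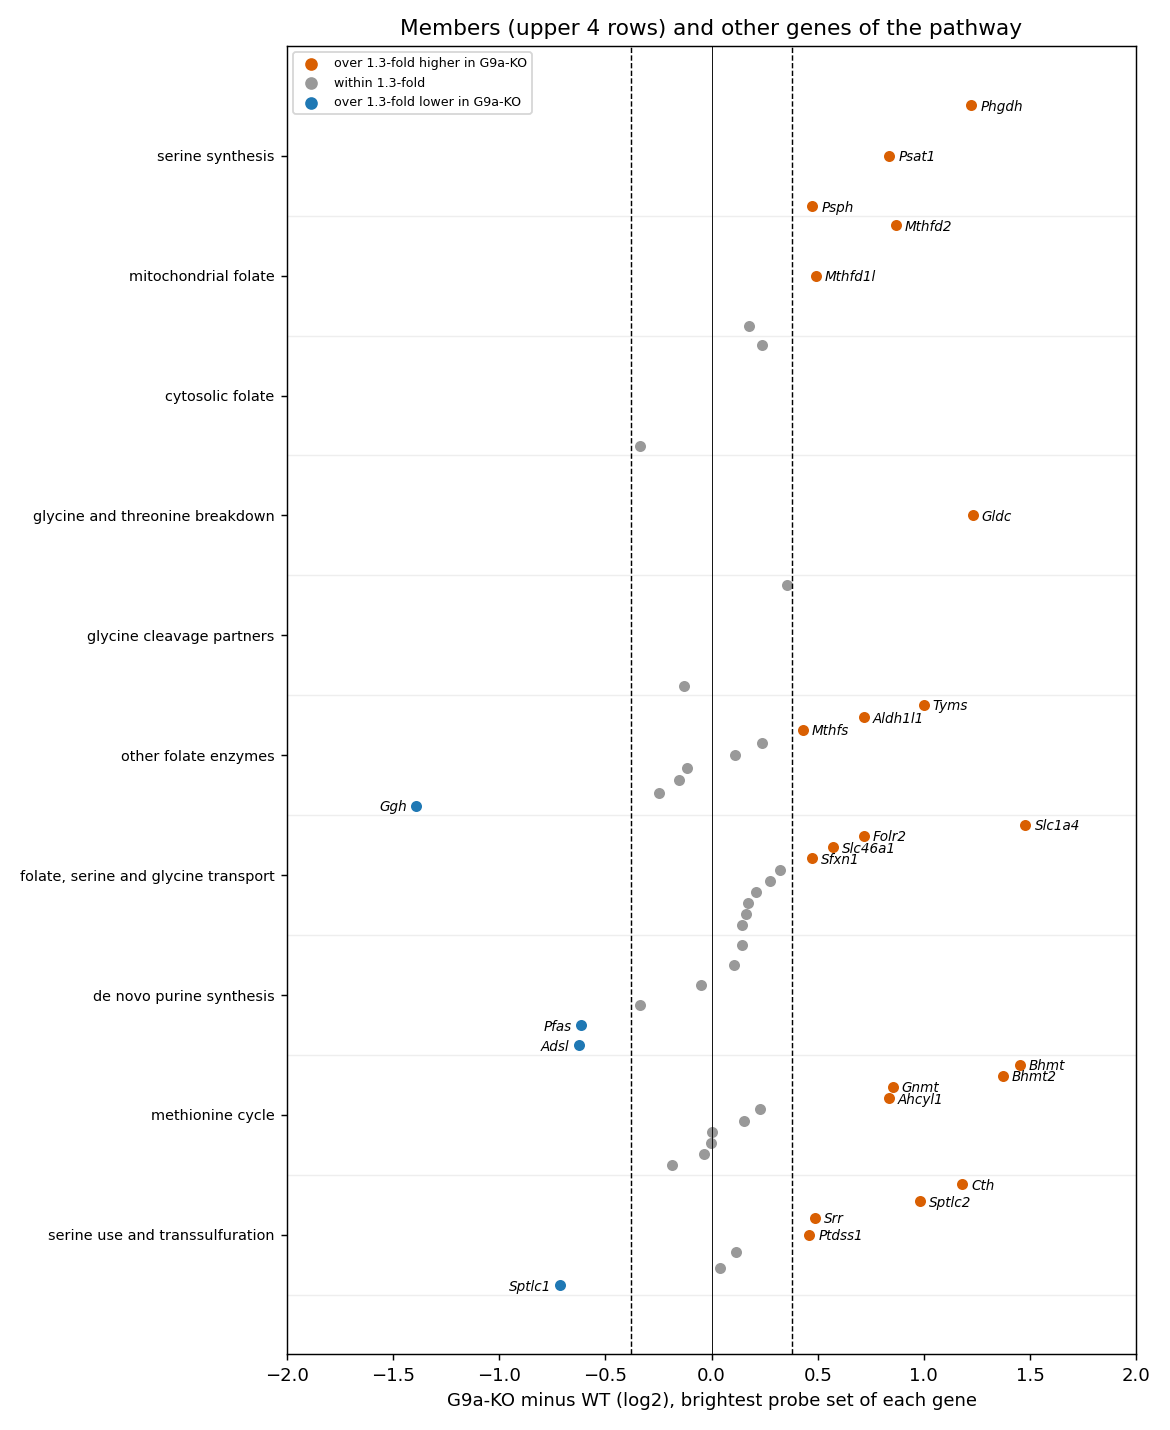
Difference between G9a-KO and WT (log2, horizontal axis) of each measured member (upper 4 rows) and of 44 other genes of the pathway (lower 6 rows), 1 point per gene by its brightest probe set, with dashed lines at 1.3-fold. All 10 transport genes lie above 0, while the purine synthesis genes lie between -0.63 and 0.14.

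The 7 genes that are known to bear on this pathway as regulators went both ways. *Ehmt2*, which encodes G9a, had 0.51 in G9a-KO and 2.05 in WT by the brighter probe set (-1.54), and 0.20 of the opposite sign by the dimmer one. The position of these probe sets relative to exons 26 and 27 was not analysed here, so they do not check the label. *Ehmt1*, its partner, differed by -0.26. *Atf4*, a transcription factor known to activate serine synthesis and amino acid transport genes, had 4.30 in G9a-KO and 4.46 in WT (-0.16, and -0.21 by the other bright probe set). *Myc* and *Mycn*, whose proteins can drive the same genes in cancer cells, were lower. *Myc* had -2.08 in G9a-KO and 0.33 in WT (-2.41), and *Mycn* had 2.04 in G9a-KO and 3.16 in WT (-1.13), with -0.61 and -0.00523 by its other probe sets. *Kdm4c*, an H3K9 demethylase, was just past the threshold by its only probe set (0.41), and *Nfe2l2* differed by 0.37. The margin of *Kdm4c* was smaller than the 0.10 by which median centring lowered every difference. The activity of these factors was not measured, and their part in the differences of the members was not tested.

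Markers of other cells differed between the cultures as well. The counts of markers stand beside 17.4% of all genes higher and 17.2% lower. Of 20 primitive endoderm markers, 18 were higher in G9a-KO and 0 lower, with a median of 2.87, and their summed linear level (in units of the 75th percentile) was 170 in G9a-KO and 25.3 in WT. Of the defining transcription factors, *Gata6* had 1.27 in G9a-KO and -1.85 in WT, and *Sox17* had 0.96 in G9a-KO and -2.15 in WT. Of 12 fibroblast markers, 3 were higher and 0 lower, and their summed level was 16.4 in G9a-KO and 16.6 in WT. Most of this sum was *Vim*, and the other 11 summed to 2.13 in G9a-KO and 1.79 in WT. *Col1a1*, *Col3a1* and *Dcn*, which define fibroblasts, were dimmer than the array median in G9a-KO and in WT. The 3 higher fibroblast markers were *Col1a2* (-1.36 in G9a-KO and -2.19 in WT), *Twist1* (-1.83 and -2.31) and *Lum* (-2.52 and -3.51). *Col1a2* lay above the array median on both arrays, *Twist1* only in G9a-KO and *Lum* on neither. Of the 10 ESC markers, 1 (*Dppa5a*) was higher and 3 (*Pou5f1*, *Zfp42* and *Utf1*) were lower. A difference below 0 was found for 7 of the 10, and for 8487 of all 18194 genes. The median difference of these markers was -0.20. Their summed level was 251 in G9a-KO and 252 in WT, and without *Dppa5a*, the brightest, the other 9 summed to 155 in G9a-KO and 189 in WT. *Pou5f1* and *Sox2* had levels of 4.45 and 4.56 in G9a-KO and of 4.91 and 4.71 in WT. The part of the endoderm signal in the differences of the members was not tested.

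**Figure D4:**
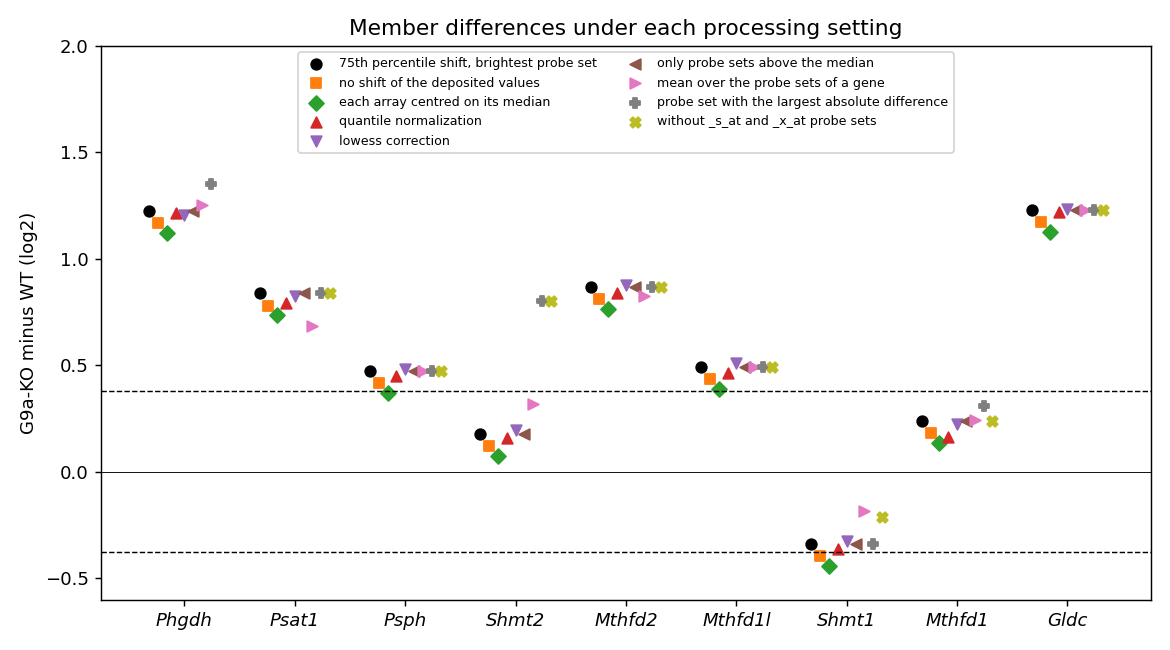
G9a-KO minus WT difference (log2, vertical axis) of each measured member under 9 processing settings, 1 point per setting, with dashed lines at 1.3-fold. *Phgdh*, *Psat1*, *Mthfd2*, *Mthfd1l* and *Gldc* stay above the upper line under each setting that measures them, whereas *Shmt2* runs between 0.076 and 0.80.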

How the data were processed

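The authors isolated total RNA, made biotinylated cRNA from 200 ng of it and hybridized 1 array for each of the G9a-KO and WT groups. The authors deposited log2 values from RMA. The submitters' processing notes name R 3.2.1, and which RMA package was used is not stated there. RMA brings the arrays to one distribution, so a difference in total RNA per cell is not visible. The deposited values ran between 1.82 and 14.3.

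Following the methods of the study, each array was shifted so that its 75th percentile was 0, and differences are G9a-KO minus WT. Gene symbols came from the platform annotation at GEO. Of 45101, 932 had several symbols, 9211 were unnamed here and neither kind was used. The value of a gene is that of its brightest probe set. With 1 array per group no test, SE or p-value was computed, and precision is limited by this number of arrays. The members, the 14 gene lists and the thresholds were chosen with earlier results of these data known. Named are all members and, of each of the 6 lists of other pathway genes, up to 4 with the largest absolute difference among those above the median on at least 1 array whose bright probe sets agree in direction (22 genes). Regulators and markers are given by counts, medians and their defining genes. Any further pathway gene that is named was picked with its value known. The alternatives were no shift, median centring, quantile normalization, lowess (span 0.3), probe sets above the median, leaving out _s_at and _x_at probe sets, the mean or the most extreme probe set of a gene, and 2-fold. The steps were tested on simulated arrays. Python 3.11.15, pandas 2.3.3, numpy 2.4.6 and statsmodels 0.14.6 were used.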

Additional observations from a re-analysis of the deposited data

How the results depend on the processing

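No member changed direction under any alternative run. Not every alternative could move a member. All 22 member probe sets lie above the median, so that setting repeated the main values. *Psph*, *Mthfd1l* and *Gldc* have 1 probe set each, so settings that choose among probe sets could not move them. With this limit, of 71 values of single members under the alternatives that measured them, 66 kept their side of the 1.3-fold threshold. The others were *Psph*, which was 0.37 and within the threshold when each array was centred on its median, *Shmt1*, which was over 1.3-fold lower without a shift (-0.39) and under median centring (-0.44), and *Shmt2*, which was over 1.3-fold higher (0.80) without _s_at and _x_at probe sets and by the most extreme probe set. The count of lower members was therefore 1 under the first pair of settings in place of 0. Median centring lowered every difference by 0.10. Of the 22 other pathway genes named by rule, *Srr* (0.15) and *Aldh1l1* (0.35) fell within the threshold by the mean of probe sets. Both means took in probe sets dimmer than the median on both arrays. *Ptdss1* (0.36) and *Sfxn1* (0.37) fell within it under median centring. *Dld* and *Mtr* passed it by the mean (0.40 and 0.39) and by the most extreme probe set (0.44 and 0.54). For *Dld* this rested on a probe set dimmer than the median on both arrays. *Phgdh* gave no value without _s_at and _x_at probe sets. At 2-fold, 2 members were higher, and of the other pathway genes 4 were higher and 1 was lower. No paired analysis was possible because each group has 1 array. A dim signal limits *Bhmt*, *Bhmt2*, *Folr2*, *Tyms* and *Mthfs*.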
